A study of Mus musculus with 6 samples.

Results

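Hypoxia factors and their direct targets were examined as a group of 10 genes in the transcriptome of mouse hematopoietic stem cells (HSCs), from which every blood lineage is replenished. The members were the rows of the deposited gene table named Hif1a, Epas1, Hif1an, Egln1, Egln2, Egln3, Vhl, Vegfa, Bnip3 and Ddit4, which are 10 of 27198 listed genes, and all 10 were among the 16520 genes that passed the filter on low counts. The HSCs came from wild-type male C57BL/6 mice, 8 to 10 weeks old and not irradiated, that received either solvent (Ctrl) or ferulic acid (FA), a phenolic acid of Angelica sinensis. The FA group had daily intraperitoneal doses of 50 mg/kg over 30 days (l-FA, long-term FA). HSCs were sorted as lineage-negative, Sca-1+, c-Kit+, Flk2- and CD34- cells, and their RNA was sequenced after whole-transcript cDNA amplification. There were 3 libraries of Ctrl and 3 of l-FA, and n below counts libraries, because the number of mice behind each library is not given in the sources used here.

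Cells sense oxygen through enzymes that use it to hydroxylate the alpha subunits of hypoxia-inducible factors (HIFs). When oxygen is plentiful, prolyl hydroxylases mark HIF-α for the VHL ubiquitin ligase and the proteasome, while an asparaginyl hydroxylase keeps the remaining HIF-α from its coactivators. When oxygen is scarce, HIF-α accumulates, pairs with ARNT and switches on genes for glycolysis, vessel growth, mitochondrial turnover and restraint of growth. HSCs reside in bone marrow niches that are low in oxygen, and HIF-1α is known there for supporting glycolysis and quiescence. This control acts mainly on protein, so transcript levels of HIF genes are not levels of HIF activity.

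Each library held between 19287735 and 20380610 counts. Libraries of the same group were close to each other, also in immunoglobulin variable genes, where the median chi-square between same-group libraries was 0.362 to 0.545 against 0.455 for counting error alone and 13.8 to 17.0 between groups. The p-values therefore measure only the spread between these libraries, which may be technical. HSC markers were detected, and 7 of 12 were higher and 1 was lower in l-FA. Cd34 and Flt3 (Flk2), which the sort selects against, were nonetheless abundant in every library, with mean levels of 149 and 158 FPKM (deposited values scaled by gene length and library total), and both were higher in l-FA (log2 fold changes of 0.23 and 0.64). Of 14 neutrophil and monocyte genes 12 were lower and 2 higher in l-FA. Their summed level, in CPM (counts relative to the library total, after TMM scaling), was 23709 to 24549 in Ctrl and 6217 to 6530 in l-FA, none of the 14 was at 0 in all libraries, and their part in the results below was not tested. Marker lists of erythroid, megakaryocyte, B, T and NK, endothelial and stromal cells had median log2 fold changes between -0.86 and 0.39. The lowest was that of T and NK markers, which summed to 549 to 570 CPM in Ctrl and 304 to 315 CPM in l-FA. Of 3 tested, 2 were lower and 0 higher. The highest was that of megakaryocyte markers (210 to 220 CPM in Ctrl and 297 to 304 CPM in l-FA), with 3 of 6 higher and 0 lower. The part of these lists in the results below was not tested. The 7 endothelial markers summed to 256 to 258 CPM in Ctrl and 297 to 302 CPM in l-FA. Of these, 5 were tested, of which 2 were higher and 0 lower. Cdh5 (3 to 9 counts per library) and Sox17 (0 to 8) were not tested. In bulk RNA, fewer cells of a type and less RNA per cell cannot be told apart.

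In l-FA, Hif1an, the asparaginyl hydroxylase gene, was 1.37 times its Ctrl level, and Vegfa, the vascular growth factor, fell by 41.0%. Hif1a fell by 11.9%, Egln3 by 14.0% and Egln2 by 8.92%, while Epas1, Egln1, Vhl, Bnip3 and Ddit4 did not pass the test. The 5 members that passed edgeR's quasi-likelihood test at an adjusted p under 0.05, 1 higher and 4 lower, stand against a background in which 50.5% of all genes tested passed, 25.5% higher and 25.0% lower, so the share of members called is close to that of genes at large. In TMM-normalized CPM, all l-FA libraries lay on one side of all Ctrl libraries for 6 of the 10 (60.3% of genes tested). Only Hif1an was higher in this way, against 30.4% of genes, and 5 members were lower, against 29.9%. This split depended on the scaling. On the deposited FPKM the groups overlapped for Egln1 and Egln2, and Bnip3 and Ddit4 lay wholly higher in l-FA, as Hif1an did. The share of all genes on that scale was not counted. The median log2 fold change of the members was -0.14, beside 0.00 over all genes tested, and -0.06 when limma was run on log2 FPKM, beside 0.08. The change of Vegfa was the largest in size among the members and lay under the 2-fold limit that, together with the adjusted p, 11.8% of genes passed. The shares of all genes tested given here are also the background for the counts of the gene lists below. The count of 5 members became 3 without Ctrl 1, without l-FA 1, without l-FA 3, or when FPKM, which scale by the total count, were tested with limma, and the genes concerned were Egln2 and Egln3.

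**Figure D1:**
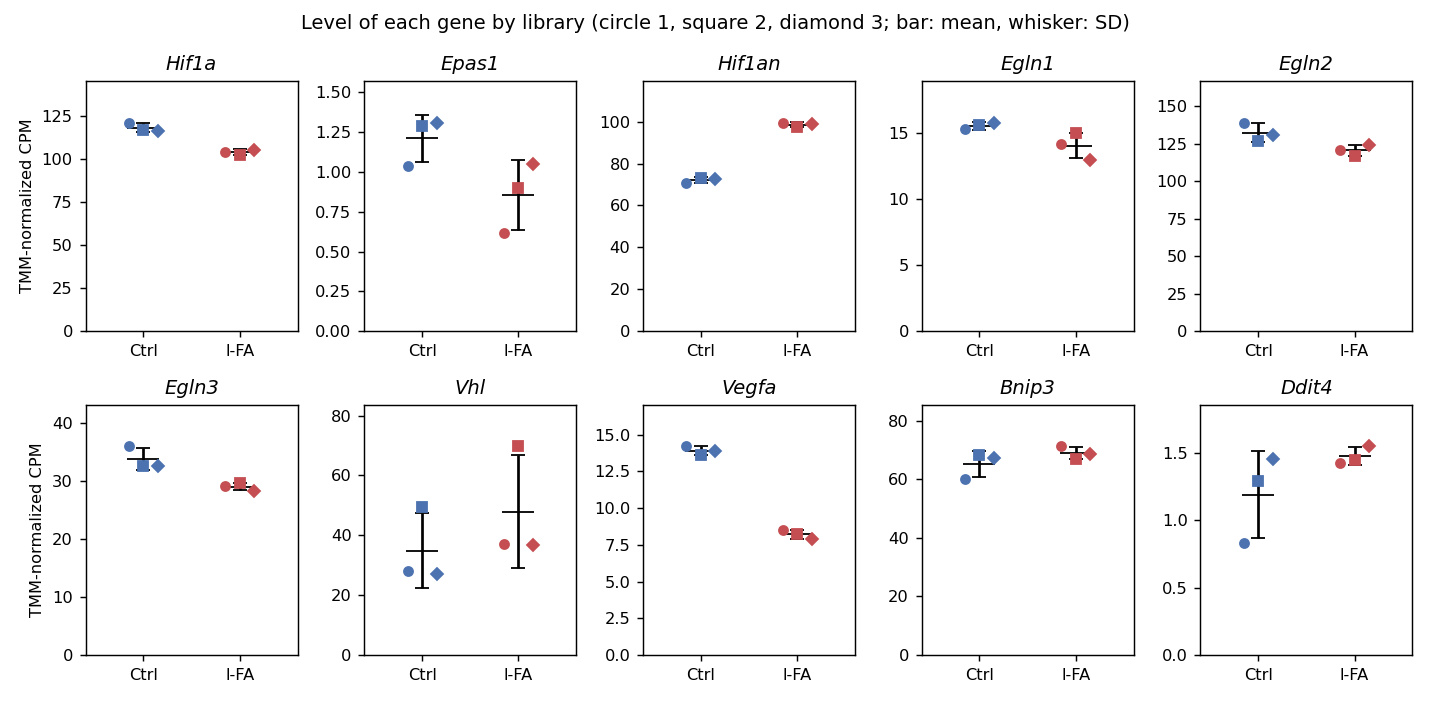
TMM-normalized CPM of each of the 10 genes (vertical axis, linear and from 0) in the 3 Ctrl and 3 l-FA libraries, with a circle, square and diamond for libraries 1, 2 and 3, a bar for the mean and a whisker for the SD (n = 3). Hif1an and Vegfa show groups that lie far apart for their spread, whereas the square of Vhl stands above the other symbols in both groups.

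Levels of different genes were compared on the deposited FPKM scale, which divides by gene length. Egln2 was the most abundant member with means of 38.7 FPKM in Ctrl and 37.2 FPKM in l-FA and its mean over the 6 libraries above 91.3% of the genes tested. In means over the 6 libraries, Bnip3 (21.3 FPKM), Hif1a (15.9), Hif1an (12.5), Egln3 (11.7) and Vhl (10.8) followed. Egln1 (4.11), Vegfa (1.48), Ddit4 (0.762) and Epas1 (0.176) were the least abundant, and Epas1 lay above only 5.64% of genes tested and 216 times below Egln2. Most neighbours in this order had ranges over the 6 libraries that did not overlap, the exceptions being Hif1an with Egln3 and Egln3 with Vhl. The order within the Ctrl libraries placed Egln3 above Hif1an (12.3 against 10.2 FPKM) and that within l-FA placed Hif1an above Egln3 (14.8 against 11.2 FPKM).

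**Figure D2:**
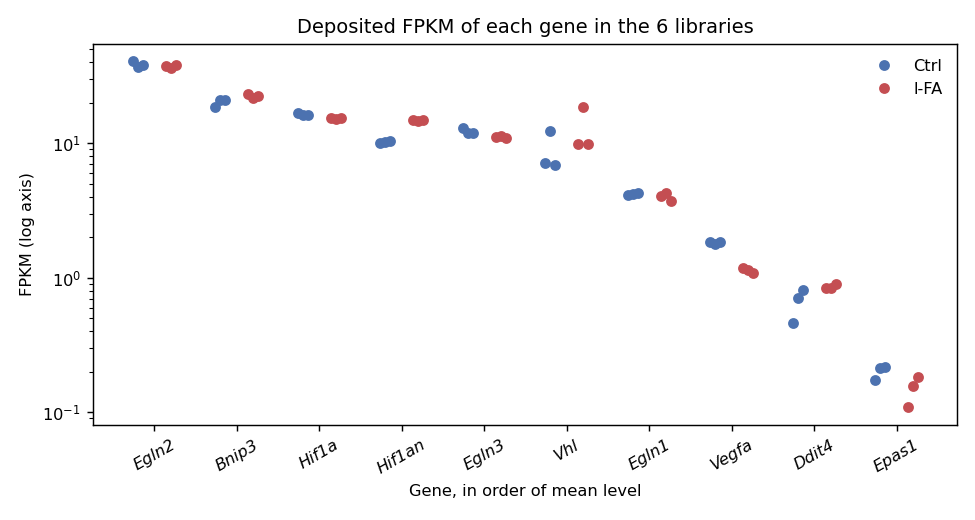
Deposited FPKM (vertical axis, log scale) of the 10 genes, in order of their mean, in each Ctrl (blue) and l-FA (red) library. Levels run from 35.97 to 40.7 FPKM for Egln2 down to 0.109 to 0.218 FPKM for Epas1, and the points of Hif1an, Egln3 and Vhl overlap.

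Hif1a encodes HIF-1α, the broadly expressed oxygen-regulated subunit, and is listed on chromosome 12 from 73948149 to 73994304 (coordinates of members are those of the deposited table, for which the submitters' processing notes name GRCm39). Its TMM-normalized level was 121, 117 and 116 CPM in Ctrl 1, 2 and 3 and 104, 102 and 105 CPM in l-FA 1, 2 and 3. All l-FA libraries were below all Ctrl libraries, though by a small margin. The means were 118 ± 2.64 CPM in Ctrl and 104 ± 1.53 CPM in l-FA (SD, n = 3). Hif1a thus changed by -0.18 on the log2 scale (standard error, SE, 0.031, 95% interval -0.26 to -0.11, adjusted p = 0.00312 by edgeR's quasi-likelihood test). Scaling by the total count made the difference smaller, since the TMM factors were 0.968 to 0.979 in Ctrl and 1.03 in l-FA, and limma on log2 FPKM gave -0.10 (adjusted p = 0.0313).

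Epas1, on chromosome 17 from 87061128 to 87140838, encodes HIF-2α, the paralog of HIF-1α best known from endothelial cells and erythropoietin-producing cells. It was near the limit of detection, with 20, 24 and 26 counts in the Ctrl libraries and 13, 18 and 21 counts in the l-FA libraries. The groups overlapped. Its log2 fold change was -0.50 (SE 0.24, 95% interval -1.08 to 0.08, edgeR adjusted p = 0.131), so that neither a decrease of more than 2-fold nor no change lay outside the interval.

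Among tested genes whose mean count reached 100, the patterns over the 6 libraries most like that of Hif1a were those of Rnf7, Kpnb1 and Ubxn4, with root mean square differences of centred log2 CPM of 0.0080, 0.012 and 0.013. The nearest to Epas1 were Mras (0.090), 2310057M21Rik (0.11) and Znrf1 (0.11). Sp100 (0.018), Znfx1 (0.019) and Abca3 (0.020) were nearest to Hif1an. These distances are descriptions over 6 libraries in 2 groups.

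Hif1an, on chromosome 19 from 44551289 to 44564713, encodes FIH, the asparaginyl hydroxylase that blocks binding of HIF-α to the coactivators CBP and p300. Its level was 70.8, 73.1 and 72.6 CPM in the Ctrl libraries and 99.5, 97.5 and 98.9 CPM in the l-FA libraries. The lowest l-FA library stood well above the highest Ctrl library, and libraries within a group hardly differed. The means were 72.2 ± 1.24 CPM in Ctrl and 98.6 ± 1.003 CPM in l-FA (SD, n = 3). The log2 fold change of Hif1an was 0.45 (SE 0.031, 95% interval 0.38 to 0.53, edgeR adjusted p = 9.04e-05), and it was the only member to rise past the threshold. In each of the 14 alternative fits it passed, with values of 0.43 to 0.52.

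The prolyl hydroxylases that mark HIF-α for VHL are encoded by Egln1, Egln2 and Egln3. Egln1, on chromosome 8 from 125635326 to 125676063, encodes PHD2, regarded as the main oxygen sensor of the group. It had 15.3, 15.6 and 15.8 CPM in Ctrl and 14.2, 15.0 and 13.0 CPM in l-FA. The l-FA libraries were all lower in CPM, but on the FPKM scale the groups overlapped. The log2 fold change of -0.14 did not pass (SE 0.075, 95% interval -0.33 to 0.04, edgeR adjusted p = 0.157).

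Egln2, on chromosome 7 from 26858083 to 26866227, encodes PHD1, and was the most abundant of the 3 per length. Its level was 139, 127 and 131 CPM in Ctrl and 121, 117 and 124 CPM in l-FA. In CPM the groups did not overlap, but the highest l-FA library came close to the lowest Ctrl library. On the FPKM scale they overlapped (37.0 to 40.7 FPKM in Ctrl and 36.0 to 38.1 FPKM in l-FA). The log2 fold change was -0.13 (SE 0.044, 95% interval -0.24 to -0.03, edgeR adjusted p = 0.0397). This call rested on the full set of libraries, since of the 6 fits on 5 libraries it held only in the 1 without Ctrl 2 (edgeR adjusted p = 0.033, against up to 0.156 in the others).

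Egln3, on chromosome 12 from 54225767 to 54250646, encodes PHD3 and is itself a well-known HIF target. It had 35.9, 32.6 and 32.6 CPM in Ctrl and 29.0, 29.6 and 28.3 CPM in l-FA. Every l-FA library was below every Ctrl library, and Ctrl 1 was the highest. Its log2 fold change was -0.22 (SE 0.058, 95% interval -0.36 to -0.08, edgeR adjusted p = 0.0199), and it did not pass without Ctrl 1 (-0.17), without l-FA 1 (-0.20) or without l-FA 3 (-0.19). The 3 prolyl hydroxylase genes therefore had estimates of the same sign, of which that of Egln1 did not pass and those of Egln2 and Egln3 depended on single libraries.

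**Figure D3:**
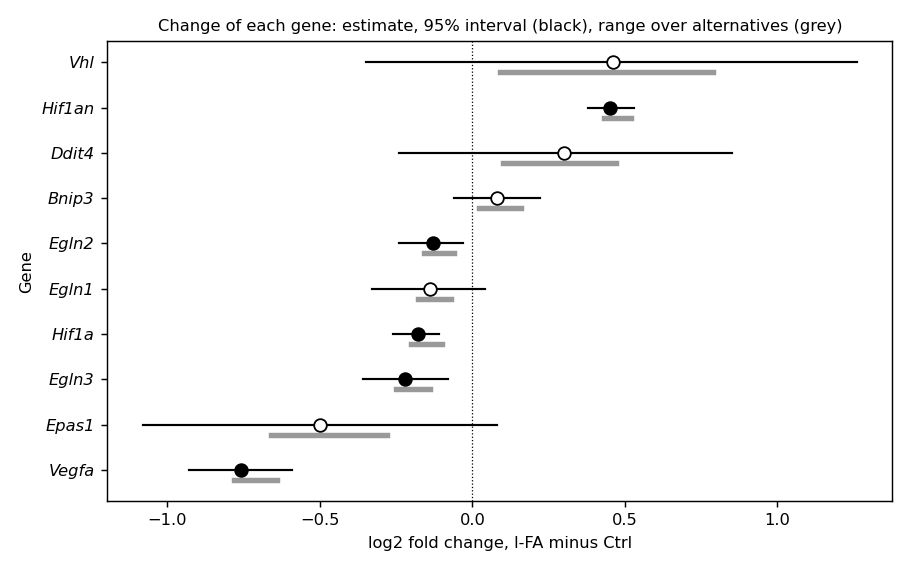
Log2 fold change of each gene in l-FA against Ctrl (horizontal axis), with filled points for an adjusted p under 0.05, black bars for the 95% interval of edgeR's fit and grey bars for the range over 14 alternative fits. Vegfa and Hif1an lie farthest from 0 for their intervals, and the interval of Vhl, from -0.35 to 1.26, is the widest of the 10.

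Vhl, on chromosome 6 from 113600920 to 113608594, encodes the substrate-recognition subunit of the ubiquitin ligase that binds hydroxylated HIF-α. It had 28.1, 49.4 and 27.1 CPM in Ctrl 1, 2 and 3 and 37.0, 69.7 and 36.8 CPM in l-FA 1, 2 and 3. Library 2 was the highest in both groups, 1.79 times the mean of libraries 1 and 3 in Ctrl and 1.89 times in l-FA, and the groups overlapped. Between all libraries the log2 fold change was 0.46 with an SE of 0.34 (95% interval -0.35 to 1.26, edgeR adjusted p = 0.303). The estimate was 0.09 without l-FA 2 and 0.79 without Ctrl 2, and neither fit passed. Without both libraries numbered 2, a fit added after these values were seen, it was 0.43 with an SE of 0.065 (edgeR adjusted p = 0.0101). A library that differed by 1.5-fold or more from each of the others in its group was seen in 810 of the 11428 genes that passed the filter on low counts and whose mean count reached 100 (7.09%), by a limit chosen after the values of Vhl were seen. Of these genes, only Vhl, Sp4 and Dab2ip were that high in library 2 of both groups. Sp4, a transcription factor gene, had 62, 195 and 83 counts in Ctrl and 104, 324 and 115 in l-FA, and Dab2ip, a RAS GTPase-activating protein gene, had 176, 279 and 197 in Ctrl and 193, 383 and 176 in l-FA. Library 2 thus stood apart for these genes in Ctrl and l-FA alike, but libraries 1 and 3 did so for other genes. By the same limit, 3 genes were high in library 1 of both groups, 3 in library 2 and 7 in library 3. For low values these numbers were 8, 7 and 5. What libraries of the same number share is not stated in the sources used here.

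**Figure D4:**
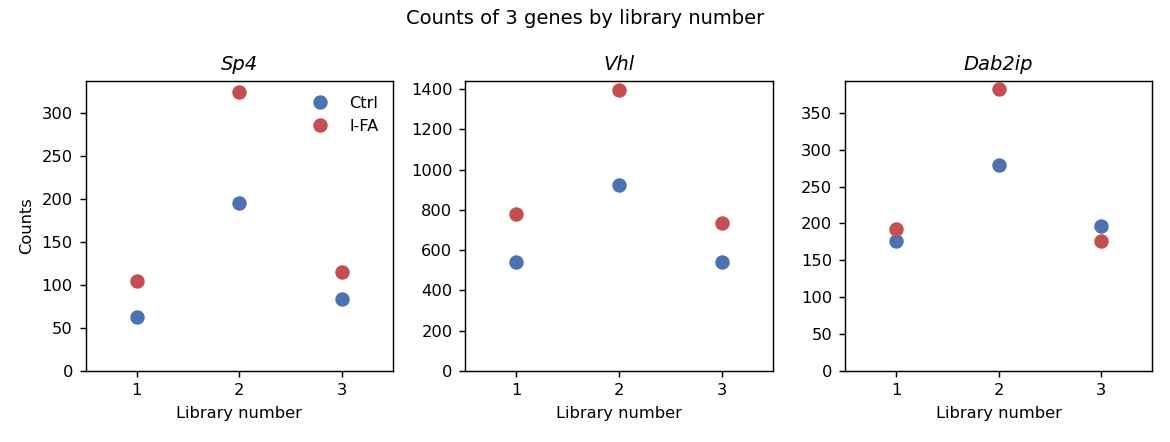
Counts (vertical axis, linear and from 0) of Sp4, Vhl and Dab2ip in libraries 1, 2 and 3 (horizontal axis) of Ctrl (blue) and l-FA (red). In each gene, library 2 is the highest of its group, as with 922 counts of Vhl in Ctrl and 1397 in l-FA.

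The partners that HIF-α needs on DNA changed in different directions. Arnt, the beta subunit, had a log2 fold change of 0.09 and did not pass (edgeR adjusted p = 0.725). Its level was 39.2, 38.5 and 59.7 CPM in Ctrl 1, 2 and 3 and 45.7, 54.5 and 45.6 CPM in l-FA 1, 2 and 3. Without Ctrl 3, all 5 tested genes of this list of partners and coactivators passed, Arnt included, with 3 higher and 2 lower. Crebbp and Ep300, which encode the coactivators CBP and p300, went opposite ways, with Crebbp 0.21 higher (SE 0.038) and Ep300 lower by a log2 fold change of -0.30 (SE 0.047). Hif3a, a HIF-α paralog with variants that restrain the other HIFs, ranged from 24 to 42 counts in Ctrl and from 125 to 167 in l-FA. It thereby rose from a low level by 2.01 on the log2 scale (SE 0.20, edgeR adjusted p = 0.000326). Cited2, a HIF target whose product competes with HIF-α for CBP and p300, went from 28.0 ± 4.17 CPM in Ctrl to 8.74 ± 0.336 CPM in l-FA (SD, n = 3), and its change on the log2 scale was -1.68 (SE 0.12, edgeR adjusted p = 0.000103). Arnt2 had at most 3 counts in a library and was not tested.

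Of 12 genes for the rest of the VHL ligase and other regulators of HIF stability, 1 rose, 7 fell and 4 did not pass, with a median log2 fold change of -0.27. With any 1 library left out, 6 fell and 1 or 2 rose. Limma on log2 FPKM gave 6 lower and 2 higher, with a median of -0.19. Among the subunits that join VHL in the ligase, Cul2, the cullin scaffold, fell from 122 ± 7.54 to 77.0 ± 0.939 CPM (SD, n = 3), and its change on the log2 scale was -0.66 (SE 0.049, edgeR adjusted p = 0.000111). The adaptors Elob (0.02) and Eloc (0.17) and the RING subunit Rbx1 (-0.04) did not pass. Usp20, a deubiquitinase known to act on HIF-1α, was the one that rose, by 0.67 (SE 0.083). Hsp90aa1, an inducible form of the chaperone that stabilises HIF-1α, and Siah2, a ubiquitin ligase that targets prolyl hydroxylases, had log2 fold changes of -0.87 (SE 0.13) and -0.84 (SE 0.16).

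The direct targets among the members were Vegfa, Bnip3 and Ddit4. Vegfa, on chromosome 17 from 46327919 to 46343295, encodes the growth factor through which hypoxic tissue recruits vessels, and HSCs are also known to make it. It had 14.2, 13.6 and 13.9 CPM in the Ctrl libraries and 8.48, 8.23 and 7.91 CPM in the l-FA libraries. The groups were far apart and libraries within them close. The means were 13.9 ± 0.307 CPM in Ctrl and 8.20 ± 0.283 CPM in l-FA (SD, n = 3). The log2 fold change of Vegfa was -0.76 (SE 0.071, 95% interval -0.93 to -0.59, edgeR adjusted p = 0.000267), and between -0.78 and -0.64 in the 14 alternative fits, each of which passed. These values rest on 158 to 277 counts per library.

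Bnip3, on chromosome 7 from 138492565 to 138511248, encodes a mitochondrial receptor for mitophagy. It had 60.2, 68.5 and 67.2 CPM in Ctrl and 71.3, 67.1 and 68.6 CPM in l-FA. The groups overlapped, with Ctrl 1 the lowest library. The log2 fold change was 0.08 (SE 0.058, 95% interval -0.06 to 0.22, edgeR adjusted p = 0.3), an interval that leaves no room for a 2-fold change. On the FPKM scale, which uses the total count, the l-FA libraries (21.8 to 23.3 FPKM) lay above the Ctrl libraries (18.5 to 21.0 FPKM), yet limma on log2 FPKM did not pass either (0.16, adjusted p = 0.0622).

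Ddit4, on chromosome 10 from 59785491 to 59787656, encodes REDD1, an inhibitor of mTORC1 that is induced by hypoxia and by other stresses. Few reads were seen, with 16, 24 and 29 counts in Ctrl and 30, 29 and 31 counts in l-FA. In counts and in CPM the groups overlapped, with 29 counts in Ctrl 3 and l-FA 2, and Ctrl 1 was the lowest. On the FPKM scale the l-FA libraries (0.839 to 0.906 FPKM) lay above the Ctrl libraries (0.461 to 0.811 FPKM). Limma on log2 FPKM did not pass either (0.37, adjusted p = 0.16). The log2 fold change was 0.30 (SE 0.23, 95% interval -0.24 to 0.85, edgeR adjusted p = 0.311). The estimate was 0.10 without Ctrl 1 and 0.47 without Ctrl 3, and neither fit passed.

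The 250 bases before the RefSeq start sites were searched in GRCm38.p6 for the core of the hypoxia response element, the letters ACGTG or GCGTG on either strand, because the targets among the members are known to be switched on through it. RefSeq sequences were matched for 9 of the 10 members, and 8 of their 11 promoters held a match, whereas 38.6% of all 32851 promoters did. These shares are not a test of enrichment. Known HIF targets are among the members, and Egln2 and Vegfa each count with a second promoter. The promoters of the 2 members that changed most for their error, Hif1an and Vegfa, and those of Egln3, Bnip3 and Ddit4 are given 5′ to 3′ in the direction of the gene, with matches in capitals. CACGTG holds a match on each strand, which overlap.
Hif1an, chr19:44562604-44562853 (+ strand): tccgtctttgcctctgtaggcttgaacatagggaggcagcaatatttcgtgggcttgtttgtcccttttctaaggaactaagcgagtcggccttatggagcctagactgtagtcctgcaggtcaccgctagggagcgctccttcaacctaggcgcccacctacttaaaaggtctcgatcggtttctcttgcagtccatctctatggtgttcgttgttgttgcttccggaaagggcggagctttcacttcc
Vegfa, chr17:46032378-46032627 (- strand): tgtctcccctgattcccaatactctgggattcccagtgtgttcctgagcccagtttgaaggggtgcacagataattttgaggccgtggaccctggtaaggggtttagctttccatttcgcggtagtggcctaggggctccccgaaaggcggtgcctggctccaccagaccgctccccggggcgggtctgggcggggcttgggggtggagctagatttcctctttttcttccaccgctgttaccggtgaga
Egln3, chr12:54203875-54204124 (- strand): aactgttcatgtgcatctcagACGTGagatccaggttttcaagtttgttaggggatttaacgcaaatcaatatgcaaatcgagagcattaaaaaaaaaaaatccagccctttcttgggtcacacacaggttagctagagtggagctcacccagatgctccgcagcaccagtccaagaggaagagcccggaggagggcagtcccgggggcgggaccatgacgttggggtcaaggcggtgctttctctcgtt
Bnip3, chr7:138909507-138909756 (- strand): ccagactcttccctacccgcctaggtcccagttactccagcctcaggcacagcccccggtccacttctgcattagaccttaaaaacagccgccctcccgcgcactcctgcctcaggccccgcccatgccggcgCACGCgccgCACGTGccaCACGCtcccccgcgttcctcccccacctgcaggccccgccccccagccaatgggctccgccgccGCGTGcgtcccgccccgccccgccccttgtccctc
Ddit4, chr10:59951771-59952020 (- strand): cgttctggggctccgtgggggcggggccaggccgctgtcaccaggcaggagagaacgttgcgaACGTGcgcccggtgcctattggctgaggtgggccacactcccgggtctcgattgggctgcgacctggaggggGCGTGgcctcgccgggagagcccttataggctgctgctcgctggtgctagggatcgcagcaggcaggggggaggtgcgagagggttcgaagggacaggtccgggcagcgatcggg
Bnip3 held 5 matches, Ddit4 2 and Egln3 1. Neither Hif1an nor the first Vegfa promoter held one in this window. The window before a second RefSeq start of Vegfa, chr17:46025164-46025413, held 2. That window lies downstream of the first Vegfa start, and it is counted among the 8 promoters with a match. Sequence farther than 250 bases before a start was not searched. Of the promoters not printed, those of Hif1a, Egln1 and both of Egln2 held matches and that of Vhl held none. Promoters with a match thus belonged to members that passed in the lower direction as well as to members that did not pass. A match is a description of the letters and not evidence of HIF binding.

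Further targets of HIF were described with a list outside the 10 members. Of 27 such targets that are not glycolytic and were tested, 13 fell, 4 rose and 10 did not pass, and all 6 past 2-fold were lower. Over all genes tested, 25.0% fell and 25.5% rose, and past 2-fold 1103 were higher and 843 lower. The median log2 fold change of the 27 targets was -0.50, which is the value of Ak4 (SE 0.72). This median rested on single libraries and on scaling, being -0.28 without Ctrl 3, -0.33 without Ctrl 1 and -0.21 by limma on log2 FPKM. In those fits 13 fell and 4 or 5 rose. Car12, a carbonic anhydrase gene, went from 11.9 ± 0.785 to 3.77 ± 1.10 CPM (SD, n = 3), and its change on the log2 scale was -1.66 (SE 0.20, edgeR adjusted p = 0.000726). Cited2, described above, belongs to the same list. The rises included Ccng2, a cyclin G gene (0.62, standard error 0.029), and Kdm3a, a histone demethylase gene (0.61, standard error 0.038). Ak4 did not pass, its counts being 1129, 100 and 1159 in the Ctrl libraries.

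Of 18 glycolytic targets, 10 fell, 4 rose and 4 did not pass. Their median log2 fold change was -0.18, and -0.27 without Ctrl 1, while limma on log2 FPKM gave -0.09 with 8 lower and 5 higher. Slc2a3, a glucose transporter gene, and Pdk1, a pyruvate dehydrogenase kinase gene, were 0.46 (SE 0.033) and 0.39 (SE 0.040) higher. Hk2, a hexokinase gene, fell from 80.5 ± 1.51 to 50.8 ± 1.27 CPM (SD, n = 3). Pfkfb3, which encodes a regulator of phosphofructokinase, had a log2 fold change of -1.27 with an SE of 0.32 (edgeR adjusted p = 0.015), its counts in Ctrl 2 (501) being under those of Ctrl 1 (1133) and Ctrl 3 (1249). Gapdh and Aldoa had at most 284 and 66 counts, and their values are uncertain here. In 253 rows of the deposited gene table the gene name is a repeat, and the first row of a name was used. Whether near-identical gene copies or the choice of row lowered the counts of Gapdh and Aldoa was not tested.

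**Figure D5:**
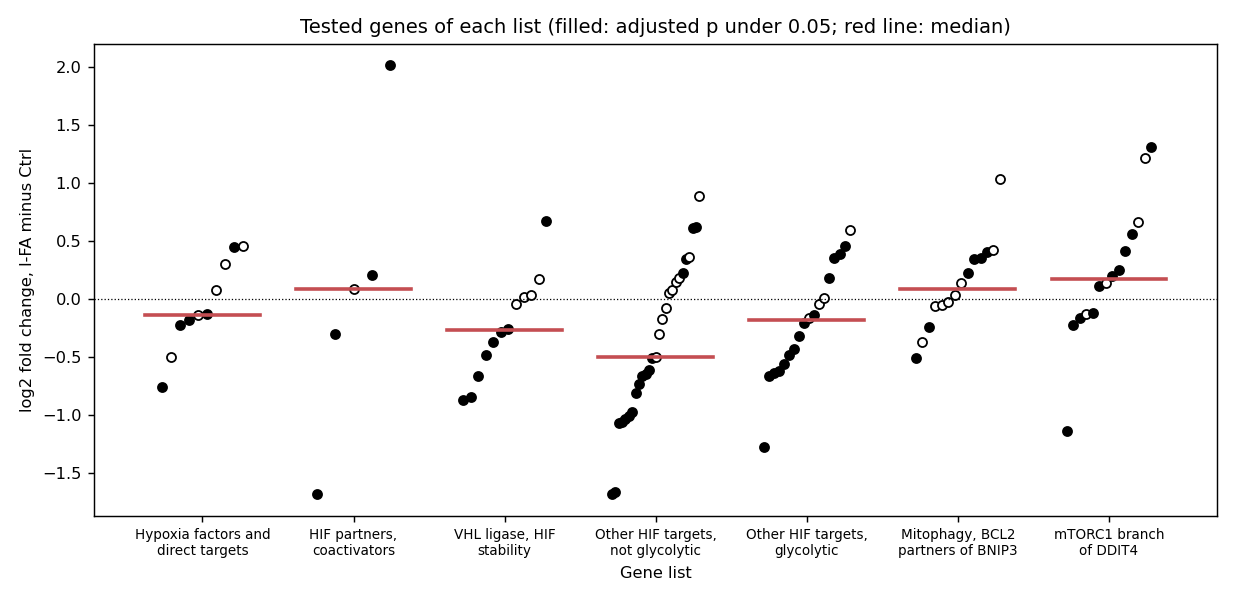
Log2 fold change in l-FA against Ctrl (vertical axis) of each tested gene of 7 lists (horizontal axis), filled where the adjusted p from edgeR was under 0.05, with a red line at the list's median. The median of the non-glycolytic HIF targets is drawn at -0.50, the value of Ak4 (-0.53 to -0.28 with 1 library left out). Every list holds genes on both sides of 0.

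Beside Vegfa, 6 genes of VEGF ligands and receptors were tested, of which 1 rose and 2 fell, and those that fell, Nrp2 and Flt4, were not tested when 10 counts were required in each library. Vegfb, another ligand, had a log2 fold change of -0.32 and did not pass (edgeR adjusted p = 0.164). Kdr, which encodes the main signalling receptor for VEGF-A, had 32 to 41 counts in Ctrl and 52 to 76 in l-FA. It was 0.78 higher on the log2 scale (SE 0.19, edgeR adjusted p = 0.0141). Kdr also counts among the endothelial markers above. Flt1, the decoy-like receptor gene, had 5 to 23 counts and was not tested. Nrp2, a co-receptor gene, ranged from 49 to 56 counts in Ctrl and from 2 to 9 in l-FA (log2 fold change -3.56, standard error 0.39, edgeR adjusted p = 0.000494). Flt4, the receptor gene of lymphatic endothelium, had 131 counts over the Ctrl libraries and 1 over the l-FA libraries, a ratio of 138 with an exact counting interval of 24.4 to 5507 that covers counting error only. Levels of these receptors were low in both groups, at 0.272 FPKM for Kdr and under that for Flt4 (0.128) and Nrp2 (0.106).

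The mitophagy genes and BCL2-family partners around Bnip3 gave 4 that rose and 2 that fell of 14 tested, with a median log2 fold change of 0.09 (0.05 to 0.14 with 1 library left out, 0.17 by limma on log2 FPKM). Bnip3l, the closest paralog of Bnip3 and a mitophagy receptor gene, had 175 ± 4.28 CPM in Ctrl and 221 ± 1.90 CPM in l-FA (SD, n = 3). It rose by 0.34 (SE 0.027, edgeR adjusted p = 0.000149), whereas Bnip3 did not pass. A test of the difference between Bnip3 and Bnip3l was not run. Bnip3l also counts among the rises of the non-glycolytic HIF targets. Pink1, a kinase that marks damaged mitochondria, rose by 0.40 (SE 0.059), and Map1lc3a by 0.35 (SE 0.093). Phb2, a prohibitin gene, and Fundc1, another mitophagy receptor gene, had log2 fold changes of -0.51 (SE 0.032) and -0.24 (SE 0.043).

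In the mTORC1 branch in which Ddit4 acts, 6 of 14 genes rose and 4 fell, with a median log2 fold change of 0.17. The count of 4 depended on single libraries, with 2 falls without Ctrl 1, l-FA 1 or l-FA 3 and 1 without l-FA 2, and limma on log2 FPKM also gave 1. Tsc1, a subunit of the complex through which REDD1 restrains mTORC1, went from 18.9 ± 1.28 to 47.0 ± 1.06 CPM (SD, n = 3), a rise of 1.31 on the log2 scale (SE 0.063, edgeR adjusted p = 2.49e-05). Sesn1, a sestrin gene, rose by 0.56 (SE 0.041). Ddit4l, the paralog of Ddit4, was low at 8 to 35 counts per library and changed by -1.14 on the log2 scale (SE 0.31, edgeR adjusted p = 0.0212), while Akt1s1, an mTORC1 inhibitor gene, had -0.22 (SE 0.068). Without both libraries numbered 2, 3 of the 14 rose and 1 fell.

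Ddit4 is also induced by glucocorticoids and by the integrated stress response. Of 8 glucocorticoid-responsive genes 1 rose and 2 fell. Fkbp5, a chaperone gene of the glucocorticoid receptor, fell from 98.3 ± 5.69 to 41.8 ± 2.68 CPM (SD, n = 3), with a log2 fold change of -1.23 (SE 0.065). Klf9 (-0.74, standard error 0.076) was the other fall, and Dusp1, a phosphatase gene, rose by 0.59 (SE 0.046). Without Ctrl 3, 6 of the 8 passed. Of 6 integrated stress response genes 2 rose and 2 fell. Asns (-0.97, standard error 0.095), the asparagine synthetase gene, and Chac1 (-0.95, standard error 0.30) were lower, and Trib3 (0.35, standard error 0.090) and Sesn2 (0.25, standard error 0.057) were higher. Sesn2 also counts among the rises of the mTORC1 branch. Without any 1 l-FA library, 1 of the 6 fell in place of 2, and without Ctrl 1, or without both libraries numbered 2, 2 of the 6 passed in all.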

How the data were processed

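RNA of sorted HSCs was measured in 3 Ctrl and 3 l-FA libraries. The values deposited by the authors are raw whole-number counts for each gene and FPKM made from them. Per the deposited values, FPKM equals counts scaled to the library total and to gene length (relative spread at most 9.15e-06 over 10699 genes). The submitters' processing notes name HISAT2, SAMtools 1.3.1, StringTie, edgeR and GRCm39, with no role, and whether counting used strand is not stated. Hif1a, Epas1, Egln2 and Bnip3 each overlap another listed gene, of at most 12 counts in a library. Samples were grouped by their labels. DESeq2 with limits of 2-fold and an adjusted p of 0.05 is what the study's methods name.

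The counts of all 6 libraries entered 1 fit in edgeR 4.0.16 under R 4.3.3 (TMM, filterByExpr, glmQLFit, glmQLFTest), and p-values were adjusted by Benjamini-Hochberg over 16520 genes. Standard errors are the absolute log2 fold change over the square root of the F statistic. The members and gene lists were chosen with earlier results of these data known, and the lists were written by hand. Genes named were the members, up to 2 rises and 2 falls per list among called genes with a mean of at least 1 CPM, direct partners and paralogs, and the 3 genes nearest in pattern to Hif1a, Epas1 and the member with the highest F. Car12, Cited2 and the like follow this rule, whereas Ak4, Gapdh, Aldoa, Sp4, Dab2ip and Arnt2 were named after their values were seen.

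Tested on simulated counts for l-FA against Ctrl over 16520 genes, the code recovered 56 of 100 genes changed 2-fold and 36 of 100 changed 1.5-fold, and 53 of the 63 changed 2-fold with a mean count of at least 100, with 10 false calls. With no gene changed it made 4 calls. The limits for accepting this were loosened 2 times after the simulation was seen, and the code under test was not altered. Depth was 19287735 to 20380610 counts per library, a count of 3 being 0.143 to 0.161 CPM. Intervals cover counting error or library spread only, as amplified cDNA carries no molecular identifiers. The smallest two-sided exact permutation p for 3 libraries against 3 is 0.1, so none is given. Alternatives were RLE and upper-quartile scaling, DESeq2 1.42.0, a fit with no filter and one requiring 10 counts or more in each library, a replicate block, leaving out single libraries, limma 3.58.1 on log2(FPKM + 0.1), and both libraries numbered 2 left out. For promoters, RefSeq sequences of GRCm38.p6 were used, and their coordinates are not those of the deposited table.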

Additional observations from a re-analysis of the deposited data

How the results depend on the processing

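Over 14 alternatives, the log2 fold change of each of the 10 members kept its sign. Hif1a, Hif1an and Vegfa passed in all 14, and Epas1, Egln1, Bnip3 and Ddit4 in none. The 1946 genes past 2-fold became 930 with at least 10 counts in every library and 3335 with no low-count filter, since the filter sets how many low genes are tested. Called genes split into 4205 higher and 4131 lower, and limma on log2(FPKM + 0.1), which scales by the total count, gave 5089 higher and 3219 lower. That fit called 3 members. Leaving out 1 library called 3 to 5 of them. Egln2 no longer passed with upper-quartile scaling (-0.11), with no low-count filter (-0.14), with limma (-0.06) or without both libraries numbered 2 (-0.13), and lay between -0.16 and -0.10 when 1 library was left out. Egln3 no longer passed with limma (-0.14) or without both libraries numbered 2 (-0.25), and lay between -0.25 and -0.17 in such fits. Vhl, which lay between 0.09 and 0.79 in them, passed without both libraries numbered 2 (0.43). The labels share replicate numbers between groups without saying that these mark a shared day or litter, and the deviations of same-numbered libraries correlated at 0.016, -0.052 and -0.16, so the numbers were not taken to pair the libraries. With the replicate block, 7405 genes were called in place of 8336, 7215 of them shared, and Vhl passed (0.44, standard error 0.050, adjusted p = 0.00461 from edgeR). No other member changed its call with the block. Counts of list genes called moved by over 1.5 times in 5 of 117 list and setting pairs. The causes of these shifts were not tested. With the replicate block, the median of the non-glycolytic HIF targets was -0.29 and 1 mTORC1 gene fell in place of 4. Epas1 and Ddit4 had the lowest counts of the members, at most 26 and 31 in a library.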

Other observations

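The pseudogene Bnip3l-ps, a relative of Bnip3l that did not pass the filter on low counts and was noticed after its values were seen, had 1, 350 and 1 counts in Ctrl 1, 2 and 3 and 2, 371 and 1 counts in l-FA 1, 2 and 3. Its mean count over the 6 libraries also reached 100, and like Vhl, Sp4 and Dab2ip it was high in library 2 of both groups. Map1lc3b, an autophagy gene of the mitophagy list, had 9921 counts in l-FA 1 beside 3393 and 3413 in the other l-FA libraries and 2454 to 2671 in Ctrl, and did not pass (adjusted p = 0.075 from edgeR). Both were chosen after their values were seen, and what sets these libraries apart for them was not tested.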
